A study of Mus musculus with 4 samples.

Results

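Kinesins and tubulins are the motor and track proteins of the microtubule system, and their genes were described here in mouse testis. Members were taken by symbol: Kif or Klc followed by a digit, or Tuba, Tubb, Tubg, Tubd or Tube followed by a digit, with 2 pseudogene symbols ending in -ps left out. The rule took 60 of the 25265 genes in the count table. Of these, 41 are kinesin motors or kinesin light chains and 17 are tubulins. The other 2 carry the prefix without being either: Kif1bp encodes a protein that binds kinesins, and Kif16bos is a noncoding RNA transcribed from the strand opposite Kif16b.

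The study compared testes of C57BL/6 mice at postnatal day 56, in 2 control and 2 Ythdf2-vKO libraries. Ythdf2 encodes a reader of N6-methyladenosine in RNA, and the series title describes the mutants as germ cell-specific. The Cre driver, the deleted segment, the allele the controls carry and whether each library came from 1 animal are not given in the sources used here, so p-values measure only the spread between these libraries. RNA was total testis RNA depleted of ribosomal RNA, sequenced from directional libraries, and the deposited values are raw read counts per gene.

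Library totals ran from 24862518 to 29561182 counts. The check of the targeted gene went against the labels: Ythdf2 had 51.0 and 53.5 CPM (counts scaled to the size of the library) in the controls and 66.3 and 67.0 CPM in those labelled vKO (log2 fold change 0.35, SE 0.13, edgeR adjusted p = 0.238). The part of the gene that was deleted is not given, so the gene's total need not show it, and the mutant group is called the libraries labelled vKO below. Control replicate 2 stood apart in base composition: the rank correlation between a gene's GC content and its deviation in a library was -0.41 there and between 0.02 and 0.26 in the other 3 libraries, across 17817 genes that are not independent replicates. Germ cell markers were present at high levels in all 4 libraries, with the 12 elongating spermatid markers summing to 13503 to 17358 CPM.

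Microtubules are polymers of alpha and beta tubulin dimers, nucleated from gamma tubulin, and delta and epsilon tubulin serve centrioles. Kinesins use ATP to walk along them or to shorten their ends, and kinesin light chains couple some of these motors to cargo. In testis the same parts build the meiotic spindle, the manchette that shapes the spermatid head, and the sperm flagellum, and germ cells use their own alpha tubulin genes, Tuba3a and Tuba3b.

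The alpha tubulin isotypes differ most in the acidic tail at the end of the protein, where the last residue matters for the cycle of tyrosine removal and return. The last 60 coding bases, stop codon included, are shown for the tubulins the results turn on, from the GENCODE M21 transcripts (GRCm38), with the last sense codon in capitals.
Tuba3a: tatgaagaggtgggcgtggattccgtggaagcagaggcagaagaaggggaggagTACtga
Tuba3b: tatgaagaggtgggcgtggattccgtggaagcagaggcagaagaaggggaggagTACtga
Tuba4a: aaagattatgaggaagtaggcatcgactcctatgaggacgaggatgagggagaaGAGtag
Tuba8: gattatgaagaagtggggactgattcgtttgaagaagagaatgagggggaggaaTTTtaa
Tubb3: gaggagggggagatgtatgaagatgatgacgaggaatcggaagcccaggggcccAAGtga
Tubb4b: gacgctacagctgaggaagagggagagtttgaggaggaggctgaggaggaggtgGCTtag
Tubb5: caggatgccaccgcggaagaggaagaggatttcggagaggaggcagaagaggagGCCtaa
Tuba3a and Tuba3b share this stretch base for base and end in a tyrosine codon. Tuba4a ends in a glutamate codon, so its protein is made without the final tyrosine, and Tuba8 ends in phenylalanine.

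Tuba3a (chr6:125278274-125286042, minus strand) and Tuba3b (chr6:145615757-145621479, plus strand) lie on the same chromosome and are 97.0% identical over 1353 coding bases, with 41 differences. Their longest identical run is 155 bases. Coding bases 313 to 372, counted from the first base of the start codon, hold 9 of the differences, which are in capitals.
Tuba3a: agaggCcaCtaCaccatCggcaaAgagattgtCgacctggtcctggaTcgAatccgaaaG
Tuba3b: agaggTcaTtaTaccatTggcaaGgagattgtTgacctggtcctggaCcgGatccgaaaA
Reads from such stretches can be assigned to 1 gene and reads from identical runs cannot, and how the counting treated the latter is not given in the sources used here. The split between the 2 genes is therefore uncertain, and their sum is given as well.

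None of the 58 members that could be tested was called between the groups. Tubb2b (4, 6, 10 and 8 counts over control replicates 1 and 2 and vKO replicates 1 and 2) and Kif28 (2, 1, 1 and 8 counts, with exon sequence shared with Ahctf1) were too low to test. A gene counted as called when its Benjamini-Hochberg adjusted p in edgeR's quasi-likelihood test was under 0.05, and 0.393% of the 21132 genes tested were called. At an unadjusted p under 0.05, which 14.1% of all genes tested reached, there were 13 members: 9 of 40 kinesins and light chains, 3 of 16 tubulins and Kif16bos. Among the kinesins 8 of these 9 lay lower in the libraries labelled vKO and 1 higher, where 6.47% and 7.65% of all genes did so. This split depended on the scaling: with library totals alone 3 kinesins lay lower and 3 higher at that threshold. With a GC correction 10 lay lower and 0 higher, where 1595 and 1288 of all 21132 genes tested did so. A DESeq2 Wald test on the same counts called 1 member, Tubb3, and 1.32% of the genes to which it gave an adjusted p. Scaling by library totals alone called Tubb3 too, with 1.03% of all genes. A replicate block called Kif2c, Kif5c and Tubb3 with 4.81% of all genes, a GC correction called no member with 0.663%, and both together called Klc3 with 2.28%. Leaving out control replicate 1 called 6 members and 7.29% of all genes, and leaving out control replicate 2 called 5 members and 5.25%. Leaving out vKO replicate 1 or 2 called 0 members, with 0.0852% and 0.114% of all genes.

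**Figure D1:**
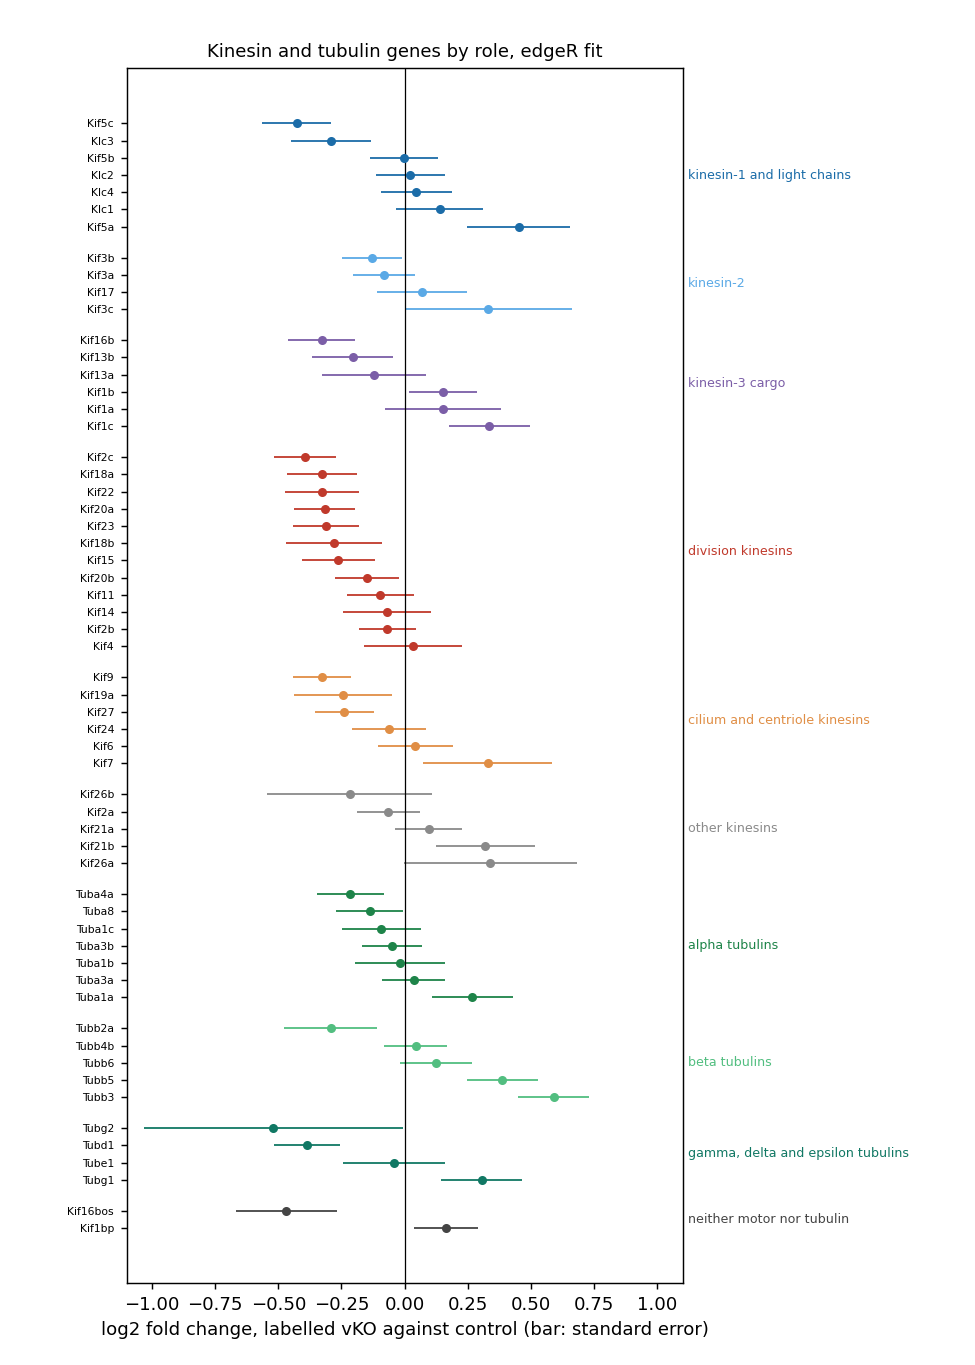
Log2 fold change of each tested member in the libraries labelled vKO against control, grouped by role, with bars for the standard error of the edgeR fit (2 libraries a group). Among the division kinesins 11 of 12 lie left of 0, and Tubb3 at 0.59 is the farthest right of all members.

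As 2 classes, kinesins and tubulins were close to each other and to the whole table. The median log2 fold change was -0.07 over 40 kinesins and light chains, -0.030 over 16 tubulins and 0.0027 over all genes tested. The difference between the class medians was -0.044. Between replicates the spread of each median was 0.0993 for kinesins and 0.0925 for tubulins (SD). The median deviation of the genes from their mean over libraries was lowest in vKO replicate 2 in both classes (-0.11 and -0.094). The 2 spreads were thus partly shared, and the spread of the difference itself was not measured. A log2 fold change under 0 was found in 62.5% of the kinesins, 56.2% of the tubulins and 49.7% of all genes. With a correction for GC content, a smooth curve per library, the order turned: the tubulin median became -0.14, the kinesin median -0.11 and the difference 0.029.

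Summed over all members, kinesins and light chains held 4616 and 4179 CPM in the controls and 4043 and 3988 CPM in those labelled vKO. Tubulins held 4728 and 4261 CPM in the controls and 4743 and 4239 CPM in those labelled vKO. The tubulin sums overlap between the groups and the kinesin sums do not. The summed CPM of all genes tested did not overlap either: 1062918 and 985239 in the controls, 981628 and 972774 in those labelled vKO. Sums without overlap are thus not particular to the kinesins here or to the lists below. Gene by gene, both libraries labelled vKO lay above both controls in 5 kinesins and below them in 12, and in 2 and 2 tubulins. Over all genes tested 45.3% showed such a gap, 22.7% above and 22.6% below. Per kilobase of exon, the kinesins came to 42.1% and 43.2% of the tubulins in the controls and to 36.8% and 41.2% in those labelled vKO.

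Levels within each class were steep. Per kilobase of exon, averaged over the 4 libraries, the 5 highest tubulins were Tuba3a (767 CPM per kb), Tuba3b (749.5 CPM per kb), Tubb4b (557 CPM per kb), Tuba8 (129.8 CPM per kb) and Tuba4a (44.5 CPM per kb). The 5 highest kinesins were Kif2b (307 CPM per kb), Kif9 (89.3 CPM per kb), Kif17 (87.95 CPM per kb), Kif27 (84.4 CPM per kb) and Kif2c (81.0 CPM per kb). Tuba3a and Tuba3b did not differ beyond the spread between libraries, and neither did Kif9, Kif17, Kif27 and Kif2c, whereas Kif2b stood above every other kinesin in each library. Together these 5 kinesins made up 65.99%, 66.5%, 65.2% and 65.8% of all kinesin signal per length in control replicates 1 and 2 and vKO replicates 1 and 2.

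**Figure D2:**
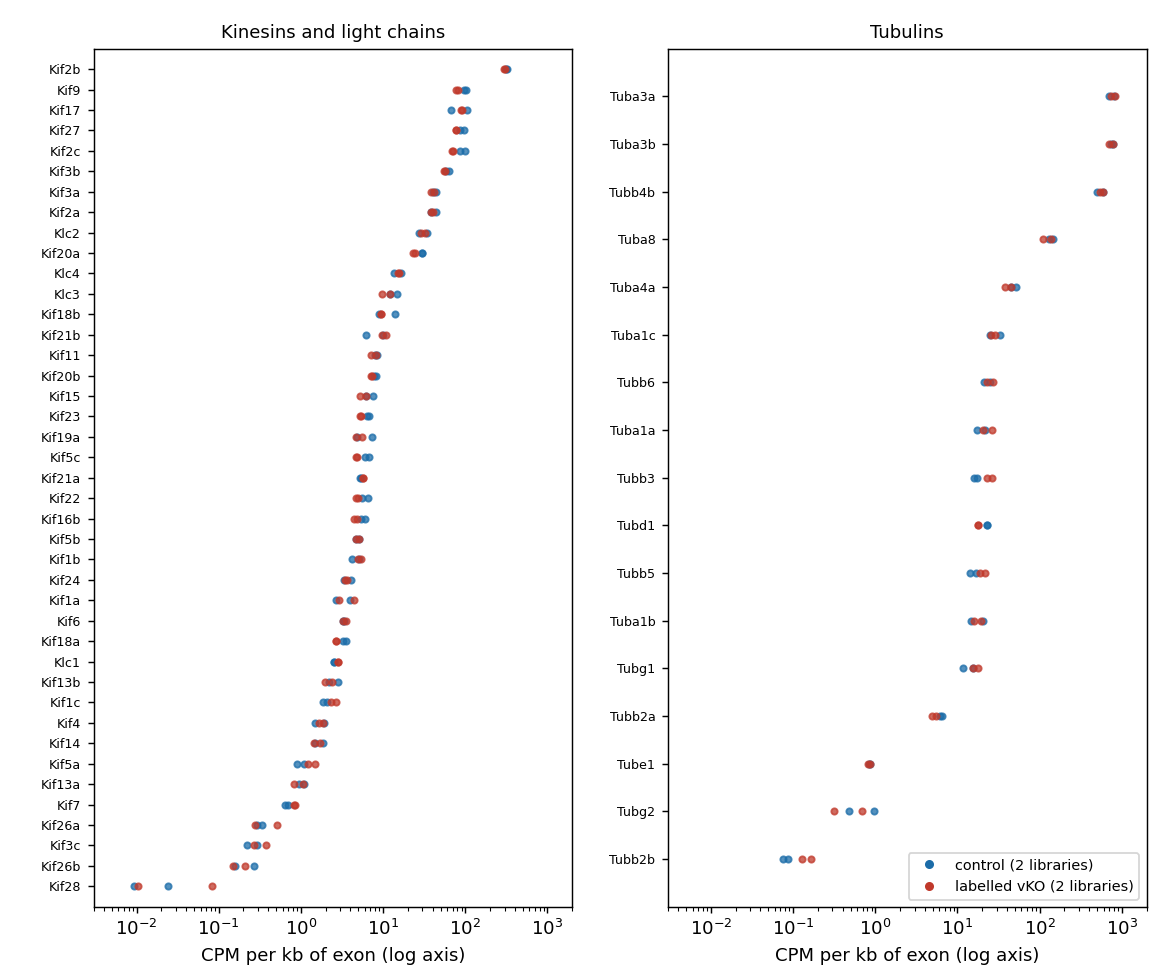
Level of each kinesin or light chain (left) and each tubulin (right) in CPM per kb of exon, on a log axis, with 1 point per library (blue control, red labelled vKO, 2 libraries each). Kif2b, at 307 CPM per kb on average, stands clear of the other kinesins, and Tuba3a, Tuba3b and Tubb4b stand clear of the other tubulins.

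The testis alpha tubulins lay at nearly the same level in both groups. Tuba3a had 1220 and 1066 CPM in the controls and 1244 and 1099 CPM in those labelled vKO (log2 fold change 0.035, SE 0.12, edgeR adjusted p = 0.939). Tuba3b had 1390 and 1317 CPM in the controls and 1389 and 1225 CPM in those labelled vKO (-0.051, SE 0.12, edgeR adjusted p = 0.900). In both genes replicate 1 of each group lay above replicate 2 and the groups overlapped. Their sum was 2610 and 2383 CPM against 2633 and 2324 CPM. It does not depend on the split of shared reads between them, but would lack any shared reads that the counting discarded.

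The pair made up 85.97% and 85.8% of alpha tubulin signal per length in the controls and 86.3% and 87.1% in those labelled vKO. Within the pair, Tuba3a held 50.8% and 48.8% in the controls and 51.3% and 51.4% in those labelled vKO. Compared with the other tubulins, the mean log2 fold change of the pair was -0.0077 and the median of the other 14 tested was -0.030. The signs of Tuba3a and Tuba3b carry no information about a direction: with the GC correction both lay lower (-0.12 and -0.20), and with scaling by library totals alone both lay higher (0.10 and 0.016).

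Of the other alpha tubulins, Tuba8, an isotype best known from testis and muscle, had 324.5 and 291 CPM in the controls and 308 and 251 CPM in those labelled vKO (-0.14, SE 0.13). Tuba4a, the isotype made without the final tyrosine, had 189 and 164.5 CPM against 166 and 139.0 CPM (-0.22, SE 0.13, edgeR adjusted p = 0.512). Its exons overlap Stk16 on the opposite strand over 1379 bases. The widely expressed trio Tuba1a, Tuba1b and Tuba1c is 98.3% to 99.4% identical pair by pair, and further copies such as Gm6682 (85 to 162 counts a library) are nearly as close, so their values are uncertain. The sum of the trio was 134.6 and 133.5 CPM against 148 and 125 CPM, with the controls inside the range of the libraries labelled vKO.

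Beta tubulin was mostly Tubb4b, the isotype of cilia and flagella (chr2:25222160-25224702), with 1242 and 1048 CPM in the controls and 1218 and 1142 CPM in those labelled vKO (0.043, SE 0.12, edgeR adjusted p = 0.923). It was 91.3% and 88.5% of beta tubulin signal per length in the controls and 88.4% and 88.1% in those labelled vKO. A pseudogene left out by the rule, Tubb4b-ps1, is 98.4% identical to it over 1339 bases and had 1520 to 2048 counts a library, so some of its reads may belong to either.

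The minor beta tubulins Tubb3 and Tubb5 lay higher in the libraries labelled vKO. Tubb3, the class III isotype used as a marker of neurons and also made by Sertoli cells (chr8:123411424-123422015), had 686 and 960 counts in the controls and 1325 and 1158 counts in those labelled vKO. As CPM this was 29.4 and 32.0 against 49.5 and 42.9, so both labelled vKO lay above both controls. The means were 30.7 ± 1.89 and 46.2 ± 4.65 CPM (SD, n = 2 each), a fold of 1.505 (log2 0.59, SE 0.14, edgeR adjusted p = 0.1002). In the authors' deposited table the log2 fold change of Tubb3 is 0.59, with an adjusted p of 0.0416. The DESeq2 Wald test on the same counts gave the same 2 values, so they are not a separate result. With the GC correction the value was 0.39 and its edgeR adjusted p 0.231. Leaving out control replicate 2 gave 0.66 with an edgeR adjusted p of 0.00291, and leaving out vKO replicate 1 gave 0.48 with an edgeR adjusted p of 0.763.

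Tubb5, the general beta tubulin of dividing and somatic cells (chr17:35833921-35838306), had 46.7 and 55.9 CPM in the controls and 72.0 and 62.4 CPM in those labelled vKO (0.39, SE 0.14, edgeR adjusted p = 0.244). Both libraries labelled vKO lay above both controls. As a share of beta tubulin per length, Tubb3 was 2.41% and 3.02% in the controls and 4.02% and 3.70% in those labelled vKO. The share of Tubb5 was 2.16% and 2.97% in the controls and 3.28% and 3.02% in those labelled vKO. Of the other 3 beta tubulins tested, Tubb6 and Tubb4b lay within 0.13 of 0 and Tubb2a lay at -0.29 (SE 0.18). Tubb2a shares 96.4% identity with Tubb2b over 1350 bases.

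Markers of some somatic cell types lay higher beside Tubb3 and Tubb5. All 12 Sertoli cell markers measured lay above 0 (median log2 fold change 0.39), and with the GC correction 1 of them lay under 0. At an unadjusted p under 0.05, 8 lay higher, and Wt1 was called (0.71, edgeR adjusted p = 0.0418). Of all genes tested, 7.65% lay higher at that unadjusted threshold and 0.279% were called higher. The summed Sertoli level was 1006 and 1079 CPM in the controls and 1409 and 1248 CPM in those labelled vKO. All 8 Leydig cell markers lay above 0 (median 0.41), with sums of 284 and 340 CPM in the controls and 473 and 349.6 CPM in those labelled vKO. Of 7 endothelial markers 5 lay above 0 and 2 below (median 0.37). Their sums were low and overlapped, at 37.05 and 26.3 CPM in the controls and 44.7 and 38.9 CPM in those labelled vKO. All 6 markers of platelets and erythrocytes lay above 0 (median 0.64), with sums of 30.2 and 35.3 CPM against 46.7 and 43.7 CPM. Markers of peritubular myoid cells and macrophages had medians of -0.012 and 0.040. Neuron markers had a median of 0.54 over 6 tested, with 4 above 0 and 2 below. Their sum was only 7.27 and 7.61 CPM against 10.01 and 8.27 CPM, and Syn1 had 1, 1, 11 and 16 counts. The part of these cells in the Tubb3 and Tubb5 values was not tested. In whole testis RNA a change in the share of a cell type cannot be told apart from a change in RNA per cell.

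Among the tubulins of centrioles and nucleation, the delta tubulin gene Tubd1 (chr11:86544991-86567360), had 47.8 and 47.8 CPM in the controls and 36.4 and 36.8 CPM in those labelled vKO, a fold of 0.765 (log2 -0.39, SE 0.13, edgeR adjusted p = 0.213). The gap between the groups was wider than the spread within them, and the value did not pass the test, which shares its estimate of spread over genes. Tubg1, the main gamma tubulin, had 34.7 and 26.4 CPM in the controls and 40.7 and 34.7 CPM in those labelled vKO (0.30, SE 0.16). Tubg2 rested on 40, 25, 32 and 15 counts and its -0.52 has a standard error of 0.51. Epsilon tubulin, Tube1, was even (-0.041, SE 0.20).

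**Figure D3:**
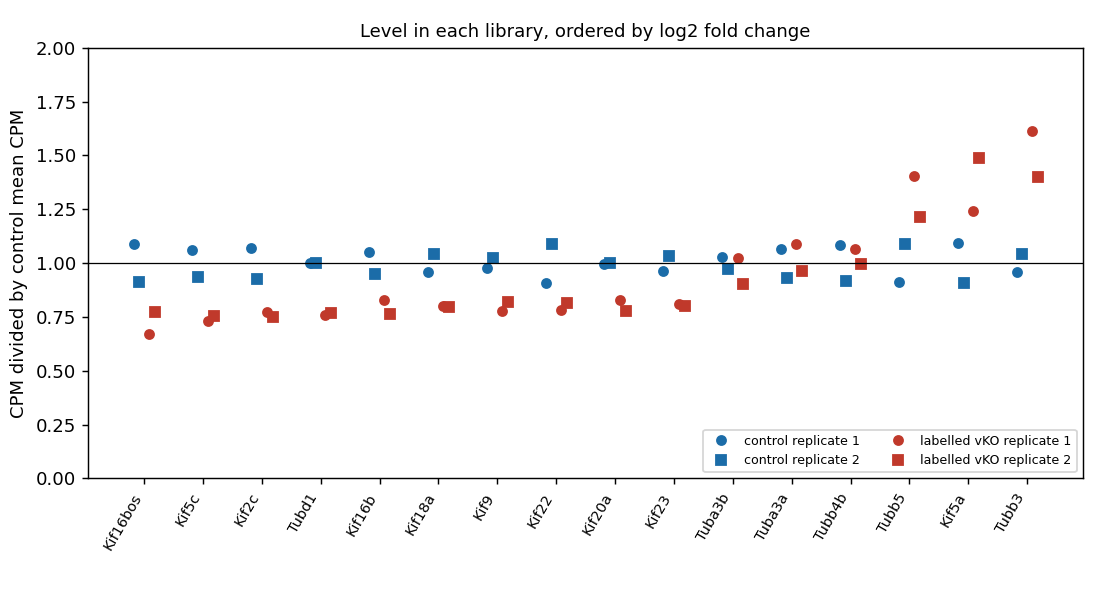
CPM in each library divided by the gene's control mean, for 16 members ordered by log2 fold change (blue control, red labelled vKO, circle replicate 1, square replicate 2). The 10 members at the left and the 3 at the right show no overlap between groups, and Tuba3b, Tuba3a and Tubb4b in between overlap. Members at both ends were chosen by an unadjusted p under 0.05 on these same values. Over all genes tested 45.3% show no overlap.

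The motors of cell division, which build, align and pull apart the spindle or complete cytokinesis, mostly lay lower in the libraries labelled vKO. Of 12 listed, 11 had a log2 fold change under 0, with a median of -0.27, beside a median of 0.011 for the other 28 kinesins and light chains, which split 14 to 14. In 7 of the 12 both libraries labelled vKO lay below both controls, where 22.6% of all genes tested did so. At an unadjusted p under 0.05, 5 lay lower, where 6.47% of all genes tested did so. The summed level of the 12 was 1626 and 1593 CPM in the controls and 1416 and 1390 CPM in those labelled vKO. The list was drawn up with earlier results of these data known, and none of its members passed the test.

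Kif2c, the microtubule depolymerase of centromeres also called MCAK (chr4:117159639-117182639), had 10061 and 11163 counts in the controls and 8291 and 8134 counts in those labelled vKO. As CPM this was 430 and 372 against 310 and 301.5 (log2 -0.39, SE 0.12, fold 0.761, edgeR adjusted p = 0.182). Control replicate 1 was the highest library and the groups did not overlap. Leaving out control replicate 2 gave -0.49 with an edgeR adjusted p of 0.00104, and leaving out control replicate 1 gave -0.29 with 0.0982. Without vKO replicate 1 or 2 the edgeR adjusted p was 0.826 or 0.621.

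Kif18a, which damps chromosome movements at metaphase, had 31.7 and 34.5 CPM in the controls and 26.4 and 26.3 CPM in those labelled vKO (-0.33, SE 0.14). Kif22, a chromokinesin that pushes chromosome arms outward, had 26.9 and 32.2 CPM against 23.2 and 24.0 CPM (-0.33, SE 0.15). The cytokinesis motors Kif20a and Kif23 had 128 and 129 CPM against 106 and 100.1 CPM (-0.32, SE 0.12) and 49.97 and 53.6 CPM against 41.9 and 41.5 CPM (-0.31, SE 0.13). In these 4 genes the libraries labelled vKO lay below both controls, and their edgeR adjusted p ranged from 0.256 to 0.342. Kif20a shares 1271 exon bases with Cdc23 on the opposite strand.

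Kif2b, the most abundant kinesin per length (chr11:91575315-91577558), had 699 and 711.5 CPM in the controls and 666 and 680 CPM in those labelled vKO (-0.068, SE 0.11, edgeR adjusted p = 0.847). It made up 29.1% and 32.0% of kinesin signal per length in the controls and 31.5% and 32.2% in those labelled vKO, so the group's most abundant member was among its evenest. The remaining 6 (Kif4, Kif11, Kif14, Kif15, Kif18b and Kif20b) lay between -0.28 and 0.032, and Kif4 alone was above 0. Kif4 shares 832 exon bases with Pdzd11 on the opposite strand. Pdzd11 had 119 and 202 counts in the controls and 233 and 264 counts in those labelled vKO.

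General markers of dividing cells and of spermatocytes lay lower in part. Of 12 dividing-cell markers 10 lay under 0 (median -0.12). At an unadjusted p under 0.05, where 6.47% of all genes tested lay lower, 3 did so: Top2a (-0.39), Aurka (-0.38) and Bub1b (-0.35). The sum of the 12 was 1082 and 1108 CPM in the controls and 949.5 and 954 CPM in those labelled vKO. Of 14 spermatocyte markers 10 lay under 0 (median -0.14), with sums of 5155 and 4697 CPM against 4941 and 4641 CPM. By contrast, all 11 spermatogonial markers tested lay above 0 (median 0.32). With the GC correction 8 of the 14 and 3 of the 11 lay under 0. The part of the germ cell make-up in the values of the division kinesins was not tested.

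Most start sites of the division kinesins hold a short sequence known from cell cycle genes. The list was chosen by a role in division, so the sequence is not independent of that choice. Genes expressed late in the cell cycle often carry a cell cycle genes homology region, TTTGAA, near the start, at times with a CCAAT box upstream. RefSeq start sites (GRCm38.p6) matched 48 members, and windows from 250 bases before to 50 bases after the start were searched on both strands. TTTGAA was found in 9 of 11 division kinesins (81.8%), 3 of 22 other kinesins and light chains (13.6%) and 2 of 14 tubulins (14.3%), and in 20.2% of 27025 genes. CCAAT was found in 63.6%, 40.9% and 57.1% of the same groups and in 41.1% of all genes. The cyclic AMP response element TGACGTCA, known from many spermatid genes, was found in 9.09%, 13.6% and 7.14%, and in 2.03% of all genes. A match describes the letters only, and the only TTTGAA matches of Kif14 and Kif2c lay at -228 and -103 from the start.

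The 120 bases before the start are shown for a set with and a set without a TTTGAA match in that stretch. Matches are in capitals: TTCAAA is TTTGAA read on the other strand, and ATTGG is CCAAT read on the other strand.
Kif22 (chr7:127042421-127042540, minus strand): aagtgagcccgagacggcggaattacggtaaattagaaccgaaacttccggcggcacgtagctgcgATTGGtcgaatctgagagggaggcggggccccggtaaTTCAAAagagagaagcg
Kif11 (chr19:37376262-37376381, plus strand): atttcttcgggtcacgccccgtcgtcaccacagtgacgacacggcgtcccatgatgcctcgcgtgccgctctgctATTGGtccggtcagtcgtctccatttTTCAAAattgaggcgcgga
Kif15 (chr9:122950961-122951080, plus strand): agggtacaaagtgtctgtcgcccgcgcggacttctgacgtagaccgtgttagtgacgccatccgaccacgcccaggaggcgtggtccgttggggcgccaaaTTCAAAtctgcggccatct
Kif18a (chr2:109280618-109280737, plus strand): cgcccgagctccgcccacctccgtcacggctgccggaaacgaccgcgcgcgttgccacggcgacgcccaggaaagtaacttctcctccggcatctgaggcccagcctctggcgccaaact
Tubb3 (chr8:123411433-123411552, plus strand): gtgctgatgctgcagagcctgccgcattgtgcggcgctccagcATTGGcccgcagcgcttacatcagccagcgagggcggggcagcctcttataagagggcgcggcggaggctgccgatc
Among the division kinesins searched, those with no TTTGAA in the window were Kif18a (log2 fold change -0.33) and Kif2b (-0.068). The 9 with a match ran from -0.39 (Kif2c) to 0.032 (Kif4), with Kif11 at -0.096 (SE 0.13). A link between the sequence and the values was not tested.

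The kinesins of cilia, centrioles and the sperm tail were mixed. Kif9, a motor of the central pair of motile cilia and flagella (chr9:110476958-110525179), had 418 and 436.5 CPM in the controls and 331.5 and 349 CPM in those labelled vKO (log2 -0.33, SE 0.12, fold 0.797, edgeR adjusted p = 0.230). Kif27, a relative of the hedgehog regulator Kif7 linked to motile cilia, had 497 and 455 CPM against 404 and 403 CPM (-0.24, SE 0.12, edgeR adjusted p = 0.384). Neither gene overlapped between the groups. Kif27 shares 332 exon bases with the antisense gene Gm26555.

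Kif6, a motor found in motile cilia, was even, with 19.85 and 19.6 CPM against 21.0 and 19.7 CPM (0.042, SE 0.15). Kif17, a kinesin-2 motor that in testis carries the transcriptional coactivator ACT in spermatids, had 478 and 308 CPM in the controls and 421.5 and 403.5 CPM in those labelled vKO (0.069, SE 0.18). The 2 controls of Kif17 lay on either side of both libraries labelled vKO, and leaving out control replicate 1 or 2 gave 0.41 (edgeR adjusted p = 0.00959) or -0.21 (0.293). Kif24 and Kif19a lay at -0.062 and -0.24. Kif7 lay at 0.33 (SE 0.25) on 69 to 106 counts, and its exons share 877 bases with the more abundant antisense gene 9330171B17Rik.

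Elongating spermatid markers lay lower beside these genes: 11 of 12 were under 0 (median -0.27). At an unadjusted p under 0.05, 5 lay lower, where 6.47% of all genes tested did so. The sums of the 12 were 17358 and 14112 CPM in the controls and 13503 and 13799 CPM in those labelled vKO. Round spermatid markers had a median of -0.012 over 10. The part of spermatid number in the values of Kif9 and Kif27 was not tested.

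The kinesin-1 transport motor gave values in both directions. Its heavy chains are Kif5a, Kif5b and Kif5c. Kif5c (chr2:49619298-49774778) had 1125 and 1272 counts in the controls and 885 and 924 counts in those labelled vKO, or 48.1 and 42.4 CPM against 33.1 and 34.2 CPM (-0.43, SE 0.14, fold 0.744, edgeR adjusted p = 0.193). This was the lowest log2 fold change of any kinesin tested, and the groups did not overlap. Leaving out control replicate 2 gave -0.52 with an edgeR adjusted p of 0.0237, and leaving out control replicate 1 gave -0.34 with 0.181. Without vKO replicate 1 or 2 the value was -0.40 or -0.45, with edgeR adjusted p of 0.867 and 0.557.

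Kif5a, the neuronal heavy chain, had 176 and 188 counts in the controls and 229 and 277 counts in those labelled vKO (0.45, SE 0.20, edgeR adjusted p = 0.338), the highest of any kinesin. Kif5b, the heavy chain of most tissues, was even (-0.0020, SE 0.14). The light chains were led by Klc2, with 50.3% and 48.8% of light-chain signal per length in the controls and 51.6% and 51.4% in those labelled vKO. Klc3, the light chain of the sperm midpiece, had 38.5 and 31.8 CPM in the controls and 32.0 and 25.4 CPM in those labelled vKO (-0.29, SE 0.16, edgeR adjusted p = 0.446). With the GC correction its value was -0.55 (edgeR adjusted p = 0.0951), and its exons share 744 bases with Ercc2 on the opposite strand. Klc1, Klc2 and Klc4 lay between 0.023 and 0.14.

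The intraflagellar motor subunits Kif3a and Kif3b lay at -0.080 and -0.13, with standard errors of 0.12, and Kif3c at 0.33 (SE 0.33) on 38 to 75 counts. Kif3c shares 2617 exon bases with the more abundant antisense gene 1110002L01Rik (622 to 729 counts), so its value is uncertain. Among the 6 kinesin-3 cargo motors tested, Kif16b, which moves endosomes, had 54.5 and 49.3 CPM in the controls and 43.0 and 39.5 CPM in those labelled vKO (-0.33, SE 0.13, edgeR adjusted p = 0.292). Its opposite-strand transcript Kif16bos had 235 and 252 counts in the controls and 166 and 192 counts in those labelled vKO (-0.47, SE 0.20, edgeR adjusted p = 0.316). Both transcripts of the locus lay lower without overlap between the groups. The other kinesin-3 motors lay between -0.21 (Kif13b) and 0.34 (Kif1c). The remaining motors Kif2a, Kif21a, Kif21b, Kif26a and Kif26b lay between -0.22 and 0.34, none at an unadjusted p under 0.05, and the kinesin-binding protein gene Kif1bp at 0.16 (SE 0.13).

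**Figure D4:**
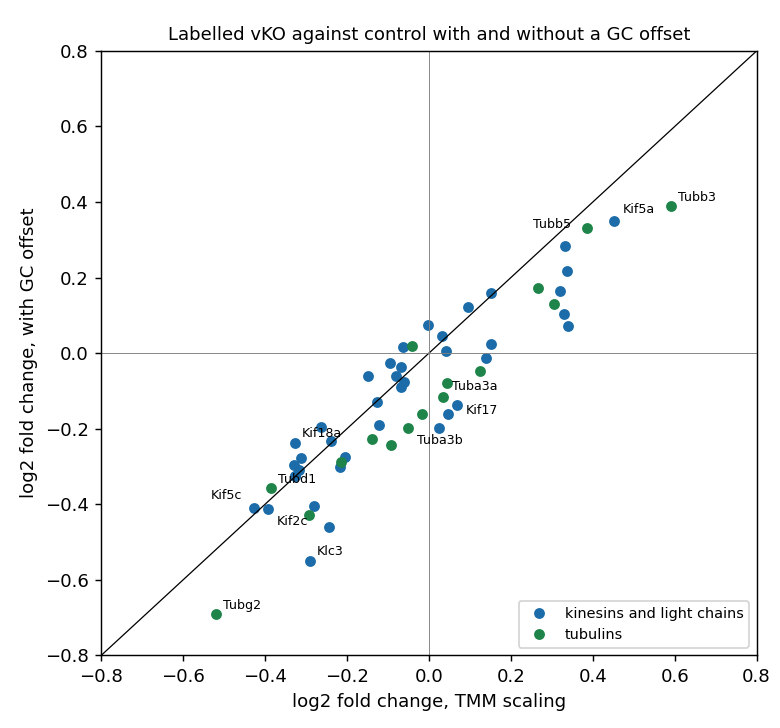
Log2 fold change of each tested kinesin or light chain (blue) and tubulin (green) with TMM scaling (horizontal) and with a correction for GC content (vertical), the line marking equal values. Klc3 moves from -0.29 to -0.55 and Tubb3 from 0.59 to 0.39, while Kif2c moves from -0.39 to -0.41.

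The GC correction shifted the tubulin median from -0.030 to -0.14 and the kinesin median from -0.07 to -0.11. GC content was taken from the longest transcript of each gene. Its median was 55.2% for tubulins, 50.1% for kinesins and light chains, 47.3% for the division kinesins and 48.9% for all genes tested. With the GC correction the division kinesins had a median of -0.22, still with 11 of 12 under 0 and 5 lower at an unadjusted p under 0.05, which 7.55% of all genes reached in that fit.

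Other genes of the microtubule system were described from 6 lists, and none of the genes tested in them was called. Of all genes tested, 7.65% lay higher and 6.47% lower at an unadjusted p under 0.05. Among 11 related motors and adaptors 1 lay higher and 1 lower at an unadjusted p under 0.05. The latter, Cenpe, a kinesin-7 motor of kinetochores, had 159 and 162 CPM in the controls and 107 and 130.1 CPM in those labelled vKO (-0.44, SE 0.13, edgeR adjusted p = 0.164). Of the 10 gamma-tubulin ring complex genes 2 lay lower at an unadjusted p under 0.05, Nedd1 (-0.35) and Cdk5rap2. Cdk5rap2, which tethers that complex to centrosomes, had 361 and 327 CPM in the controls and 236 and 251 CPM in those labelled vKO (-0.50, SE 0.12, edgeR adjusted p = 0.105).

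Hdac6, a tubulin deacetylase, came closest to the threshold among the 28 enzymes of tubulin modification, with 61.4 and 63.3 CPM in the controls and 98.8 and 92.3 CPM in those labelled vKO (0.62, SE 0.12, edgeR adjusted p = 0.0558). In that list 3 genes lay higher and 0 lower at an unadjusted p under 0.05, where 7.65% and 6.47% of all genes tested did so. At the same unadjusted threshold 1 of 14 tubulin folding cofactors lay higher and 0 lower. Among 8 severing proteins and stathmins 1 lay higher and 1 lower (Katnal2, -0.28), and among 18 plus-end and lattice proteins 2 lay higher and 2 lower (Prc1, -0.31, and Hook1, -0.30). The smallest p of each of these lists belonged to Tbcc, a tubulin folding cofactor (0.30), Stmn1, which sequesters tubulin dimers (0.28), and Map1b, a lattice-binding protein (0.38), with edgeR adjusted p from 0.207 to 0.314.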

How the data were processed

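Total RNA of 4 testis libraries was measured by RNA-seq, with 2 libraries a group by the genotype in the labels. Reads were aligned with HISAT2 2.1.0 and counted with HTSeq 0.6.1p1 per gene, per the submitters' processing notes. The genome build, the strand setting and the treatment of reads with several matches are not given in the sources used here, so the values of overlapping genes and near-identical copies are uncertain. The deposited table holds raw counts for 25265 genes in 4 columns. Beside them it holds results of the authors, per the file headers: a mean normalized level (a signal), a log2 fold change, its standard error, a test statistic (a score), a p-value and an adjusted p-value. Only the log2 fold change and adjusted p-value of Tubb3 are quoted from these.

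Counts were fitted over the whole table with edgeR 4.0.16 (R 4.3.3): TMM scaling, filterByExpr (21132 genes kept), robust quasi-likelihood fit, prior count 0.125, 2-sided test, Benjamini-Hochberg adjustment over all genes tested, calls at an adjusted p under 0.05. CPM use the TMM-scaled library sizes, and levels between genes are compared per kb of merged exons (GENCODE M21, GRCm38), which held 25261 of the gene IDs, with coordinates from the same annotation. No set test was run. Genes varied between replicates with a common coefficient of variation of 13.51% beyond counting noise. The chi-square between replicates, divided by its degrees of freedom, was 21.2 in controls and 8.42 in the libraries labelled vKO, above sampling noise. Same-numbered libraries of the 2 groups were not taken as pairs, since the labels state no shared source. Across genes, the deviations of replicate 1 from its group mean correlated at 0.109 between the groups. That is a single contrast, so it cannot settle whether the libraries are paired. Identity between copies came from blastn 2.17.0.

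Members and lists were chosen with earlier results of these data known. Genes were named if called, if at an unadjusted p under 0.05 with a mean of at least 1 CPM, if among the 5 highest kinesins or tubulins per length, if a testis tubulin or a spermatid or flagellum kinesin, or if at the extremes of log2 fold change. The other members are named to account for the whole list. For pathway lists the gene with the smallest p was named, and Nedd1, Katnal2, Prc1, Hook1, Gm6682, Top2a, Aurka, Bub1b, Wt1 and Syn1 were named after their values were seen. There were 14 alternatives: DESeq2 1.42.0 size factors, library totals alone, no filter, at least 10 counts in every library, the DESeq2 Wald test, a fit that is not robust, prior count 2, a replicate block, a GC offset (loess span 0.3) without and with the block, and each library left out.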

Additional observations from a re-analysis of the deposited data

How the results depend on the processing

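Leaving out 1 library leaves 1 in its group, which is then assumed to vary like the others. The number of members called, 0 in the main analysis, was 1 with library totals alone, 1 with the DESeq2 Wald test (Tubb3 in both), 3 with the replicate block (Kif2c, Kif5c and Tubb3, with edgeR adjusted p of 0.0419, 0.0394 and 0.00516), 1 with the GC offset and replicate block together (Klc3, edgeR adjusted p = 0.0211) and 0 to 6 with 1 library left out. Of these, kinesins were 2 with the block, 1 with GC offset and block and 0 to 4 with a library left out. Tubulins were 1 with library totals, 1 with DESeq2, 1 with the block and 0 to 2 with a library left out. Without control replicate 1 the members called were Kif9, Kif15, Kif17, Kif21b, Tubb3 and Tubg1, and without control replicate 2 they were Kif2c, Kif5c, Kif18b, Tubb3 and Tubb5; without either library labelled vKO there were 0. The share of all genes called also moved, to 1.03% with library totals, 1.32% with DESeq2, 4.81% with the block, 2.28% with GC offset and block, 7.29% and 5.25% without control replicates 1 and 2, and 0.0852% and 0.114% without vKO replicates 1 and 2, so the counts are not comparable between settings.

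The kinesin median ranged from -0.18 to 0.0092 with a library left out. The tubulin median was -0.14 with the GC offset and -0.13 with GC offset and block, and the mean of Tuba3a and Tuba3b was -0.16 with each. The difference of kinesin and tubulin medians, -0.044, became 0.029 and 0.022 under these 2 settings. The division kinesin median was -0.20 with library totals, -0.22 with the GC offset, -0.22 with GC offset and block, and -0.30 to -0.21 with a library left out. Of the division kinesins, 5 lay lower at an unadjusted p under 0.05, against 1 with library totals, 3 with DESeq2 and 0 to 6 with a library left out, the 0 being without either library labelled vKO. Of 24 named members 18 kept the sign of their log2 fold change under all 14 alternatives, and 6 did not (Kif6, Kif17, Tuba3a, Tuba3b, Tubb4b and Tubg2). The cause of these changes was not tested.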
